A study of Mus musculus with 6 samples.

Results

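The replication-dependent histone genes encode the linker histone H1 and the core histones H2A, H2B, H3 and H4, and stand in the genome as small clusters of near-identical, mostly intron-less genes. They were taken as the gene entries whose symbol starts with Hist and a digit and whose mean over the 6 libraries was at least 1 FPKM (fragments scaled by transcript length and by the size of the library). This gave 60 members of 17169 entries in all. A further entry with such a symbol, Hist1h4m, lay under the threshold with a mean of 0.804 FPKM, and the members nearest above it were Hist2h3c2 (2.23 FPKM), Hist1h2ba (3.11 FPKM) and Hist2h3c1.1 (3.70 FPKM). Of the members, 5 encode H1, 14 H2A, 17 H2B, 12 H3 and 12 H4. By cluster, 48 belong to Hist1 on chromosome 13, 8 to Hist2 on chromosome 3, 3 to Hist3 on chromosome 11 and 1, Hist4h4, to Hist4 on chromosome 6.

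Histone proteins are needed in bulk while DNA is copied, and the clustered genes are known for being read almost solely in S phase. Their transcription depends on the coactivator Npat, a substrate of cyclin E with Cdk2. Most of their mRNAs carry no poly(A) tail and end in a conserved stem-loop that is bound by Slbp. The endonuclease Cpsf3 cuts the precursor just after the stem-loop. Once replication stops, the stem-loop is used as the site where decay begins.

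RNA was sequenced from 3 mouse cell lines, BBC, ZNF and BCRF8C, which the protocol calls BBC2, ZNF112 and BCRF8C. All were grown out of the bone marrow of diseased Balb/c mice and are labelled SCLL lines, from stem cell leukemia and lymphoma, a disease driven by fusion kinases built on the growth factor receptor FGFR1. The cells were kept for 24 h with BGJ398, an inhibitor of FGFR kinases, or with DMSO, its solvent, which makes 3 BGJ398 libraries and 3 DMSO libraries. The design text asks how inhibition of FGFR1 changes the transcriptome. The BGJ398 doses were 30 nM for BBC, 3 nM for ZNF and 1.5 nM for BCRF8C if the protocol lists doses and lines in the same order, so that dose and line cannot be told apart. Each line was represented by 1 library per agent, with no replicates within a line and no repeat cultures named, and p-values across lines measure the spread between 3 lines at 3 doses.

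The 6 libraries differed as a whole. Over the 14232 entries that reached 1 FPKM on average, the median level was 4.53, 6.47 and 4.92 FPKM in the BGJ398 libraries of BBC, ZNF and BCRF8C, against 9.95, 8.36 and 9.03 FPKM in the DMSO libraries. The median log2 ratio of BGJ398 over DMSO, on the log2(FPKM + 1) scale used for all single genes, was -0.69 over these entries. Highly expressed entries were lower by more than this median, so scaling of the libraries bears on every value below, and library and agent cannot be told apart. The depth is unknown. Ptprc, which encodes the leukocyte antigen CD45, was at 39.5 to 176 FPKM in all 6 libraries. The other blood cell marker, Coro1a, was at 2.85 FPKM in the BGJ398 library and 1.38 FPKM in the DMSO library of BCRF8C. Of the B lineage markers, Cd79b, Vpreb1 and Igll1 were listed at 0 outside BBC. Pax5 had 25.2, 4.66 and 1.60 FPKM with BGJ398 in BBC, ZNF and BCRF8C, against 84.7, 0.215 and 0.0518 FPKM with DMSO, and did not pass (limma adjusted p = 0.505). Cd79a had 132, 1.12 and 1.02 FPKM with BGJ398, against 179, 0.178 and 0.148 FPKM with DMSO, and did not pass (limma adjusted p = 0.369).

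Of the tested T lineage, myeloid, erythroid, and stromal and endothelial markers, 2 were called higher with BGJ398. The 5 tested T lineage markers, each highest in ZNF, summed to 34.7, 534 and 13.4 FPKM with BGJ398, against 32.6, 839 and 4.90 FPKM with DMSO, and 1 of them, Cd8a, was called higher (1.89, 20.3 and 1.96 FPKM with BGJ398, against 0.880, 7.34 and 0.0886 FPKM with DMSO, limma adjusted p = 0.0427). The other 4 did not pass. In ZNF, Cd3g, Cd3d, Lck and Tcf7 were lower, at 186, 68.8, 131 and 128 FPKM with BGJ398, against 335, 119, 161 and 217 FPKM with DMSO. In BBC only Lck of these was lower, and in BCRF8C none was. Of the 5 stromal and endothelial markers, 2 were in the table, with a sum of 6.56, 3.20 and 14.9 FPKM with BGJ398, against 2.82, 0.372 and 1.17 FPKM with DMSO. The collagen gene Col1a1 was called higher (4.39, 1.24 and 7.66 FPKM with BGJ398, against 0.941, 0.336 and 0.0109 FPKM with DMSO, limma adjusted p = 0.0449), while Col1a2 did not pass (limma adjusted p = 0.0757). Neither Cd8a nor Col1a1 was called on the 3 other scales described below. The myeloid markers Mpo and Lyz2 summed to at most 5.18 FPKM in a BGJ398 library and at most 5.97 FPKM in a DMSO library. The part of these cell types in the results was not tested.

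The stem-loop is the feature that sets these transcripts apart, so it was read from the GENCODE vM21 transcripts of the members. The motif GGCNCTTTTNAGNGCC was searched on the transcript strand. It was present in 31 of the 50 members found there by identifier, and in 47 of all 55450 genes (0.0848%). Shown 5′ to 3′ with 5 bases on each side, in DNA letters and with the 16-base stem-loop in capitals, are a member of each type and 2 less common forms from Hist2h2ac and Hist2h4.
Hist1h1e: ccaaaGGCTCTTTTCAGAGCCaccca
Hist1h2ab: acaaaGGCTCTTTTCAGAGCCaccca
Hist1h2bb: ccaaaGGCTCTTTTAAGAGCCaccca
Hist1h3b: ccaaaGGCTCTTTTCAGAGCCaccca
Hist1h4d: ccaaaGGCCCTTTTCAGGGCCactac
Hist2h2ac: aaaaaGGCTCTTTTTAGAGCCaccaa
Hist2h4: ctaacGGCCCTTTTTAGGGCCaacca

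The form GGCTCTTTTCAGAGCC was shared by 3 H1, 6 H2A, 6 H2B and 4 H3 members. The H4 members had forms of their own, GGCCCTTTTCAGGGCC in 5 and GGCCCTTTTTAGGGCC in 2. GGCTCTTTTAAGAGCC occurred in 2 H2B and 2 H3 members, and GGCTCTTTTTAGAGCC in Hist2h2ac alone among the members. In 15 members the annotated transcript ended within 100 bases after the stem-loop, as in the short form of a histone mRNA, and in 16 it ran on further. For the other 19 members these letters were not in the annotated transcript.

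Nearly all clustered histone genes were lower with BGJ398 in each of the 3 lines. Across the lines, 53 of the 60 members fell and 0 rose (limma with the line as a block, adjusted p under 0.05 by Benjamini-Hochberg over all 14232 entries), where 30.2% of all entries were called lower and 6.61% higher. The members that fell include all 5 H1 genes, all 14 H2A genes, 14 of 17 H2B, 9 of 12 H3 and 11 of 12 H4 genes. The median of the members' mean log2 ratios was -2.71, against -0.69 for all entries. In a bulk sample, fewer cells in the phase that makes histone RNA and less histone RNA per cell cannot be told apart.

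**Figure D1:**
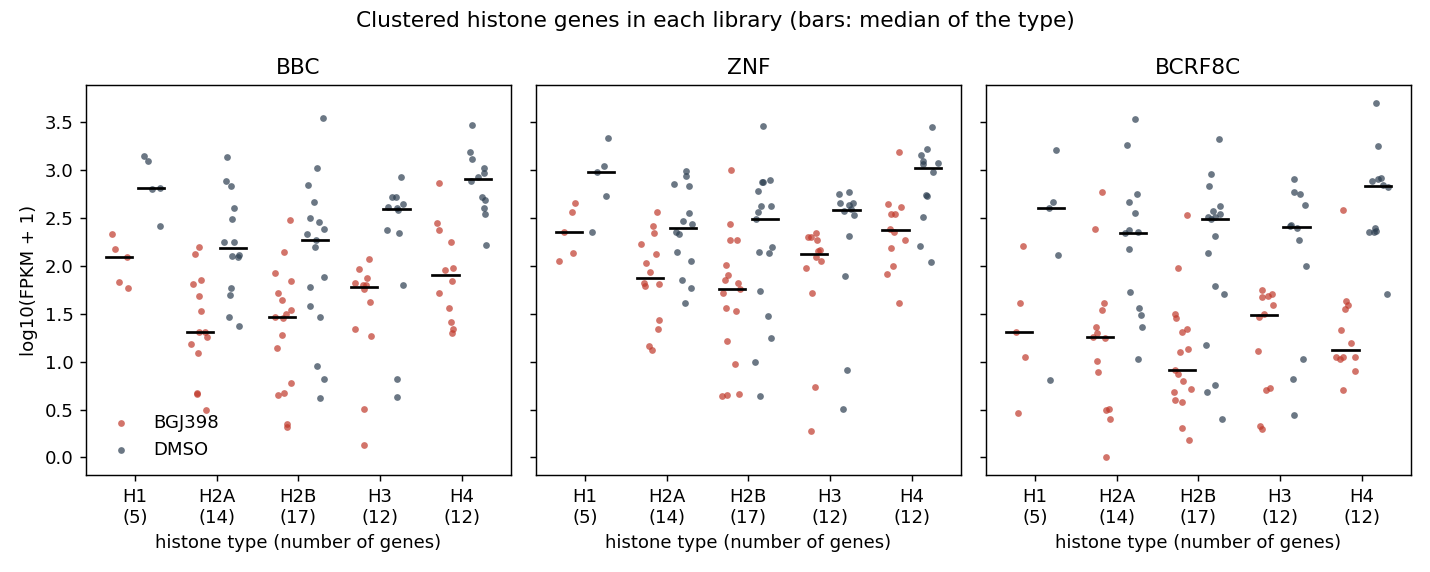
Level of each histone gene in each library as log10(FPKM + 1), by histone type, with BGJ398 in red on the left and DMSO in dark blue on the right of each pair. Each point is 1 gene in 1 library and each bar the median of the type. The medians with BGJ398 lie below those with DMSO for each type in all 3 lines, and the lowest point, Hist1h2ad in BCRF8C with BGJ398, is at 0.001 FPKM.

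These calls rest on the scale of the deposited values and on the BBC and BCRF8C libraries. By limma, 0 members were called with median-of-ratios scaling of the libraries, after quantile normalization or with the trend of the ratio on expression removed. On these 3 scales 53, 49 and 39 members had an unadjusted p under 0.05, against 58 as deposited. Of all 14232 entries, 5756, 3283 and 3084 did so on these scales, against 7812 as deposited. Without the block for the line 0 members were called, with 52 members and 5679 of all entries at an unadjusted p under 0.05. Without BBC 0 were called, with 32 members and 2991 of all entries at an unadjusted p under 0.05. Without ZNF 50 members were called, and without BCRF8C 17. The direction depended less on the scale. It was lower in all 3 lines for 59 members as deposited (55.7% of all entries), for 57 after median-of-ratios scaling (35.3%), for 56 after quantile normalization (33.3%) and for 53 with the trend removed (25.4%). An entry at 0 with both agents in a line cannot be lower there as deposited or after median-of-ratios scaling. On the other 2 scales it can take a small ratio below 0. Of the 17169 entries, 3185 were at 0 in each ZNF library and 1640 in each BCRF8C library, but no member was. The shares over all entries are thus no like background for the members, nor alike between scales. The members' median log2 ratio was -1.96, -1.54 and -1.23 on the 3 scales other than as deposited, where the median of all entries was -0.07, -0.11 and 0.03.

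A rank within a library does not change when that library is scaled. By rank among the 14232 entries, the median member stood at the 94.1, 96.2 and 80.2 percentile of level in the BGJ398 libraries of BBC, ZNF and BCRF8C, against the 97.4, 97.7 and 96.9 percentile in the DMSO libraries. The members thus kept a high rank in BBC and ZNF and lost more of it in BCRF8C. Ratios between libraries do depend on the scale. As deposited, 15 of the 100 entries with the lowest mean log2 ratio were clustered histone genes, led by Hist1h4j at rank 36. The members make up 60 of the 14232 entries. How far the libraries of the agents were separated depended on the scale as well. All 3 BGJ398 libraries lay below all 3 DMSO libraries in 50 of the 60 members as deposited (35.1% of all entries), in 39 when scaled by the median of ratios (14.5%), in 31 when quantile normalized (10.7%) and in 15 with the trend removed (6.84%). An entry at 0 in any DMSO library cannot meet this as deposited or when scaled by the median of ratios. No member was at 0, so these shares are no like background for the members.

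Level and length of the entries were set beside the members, since histone genes are both short and highly expressed. The 720 other entries at 100 FPKM or more on average had a median log2 ratio of -1.71, and 41.2% of them were called lower. Other entries with a locus of at most 1000 bases, of which there were 1063, had a median log2 ratio of 0.68 for the mean over lines, and 11.9% were called lower. Taken line by line, their median was 0.16 for BBC, 0 for ZNF and 0 for BCRF8C. A median of 0 can come from entries at 0 FPKM with both agents and is then no measure of an unchanged level. The 101 entries that were both short and at 100 FPKM or more had a median of -1.29 for the mean over lines, with 13.9% called lower. Their median by line was -1.35 (BBC), 0 (ZNF) and -1.08 (BCRF8C). Of all 17169 entries, 3185 were at 0 FPKM with each agent in ZNF and 1640 in BCRF8C. How many of these were short was not counted, so short entries are a limited comparison for the histone genes. With the expression trend removed, the medians of the mean over lines were -0.16, 0.45 and 0.18 for these 3 sets, against -1.23 for the histone genes. No test was made of these differences.

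**Figure D2:**
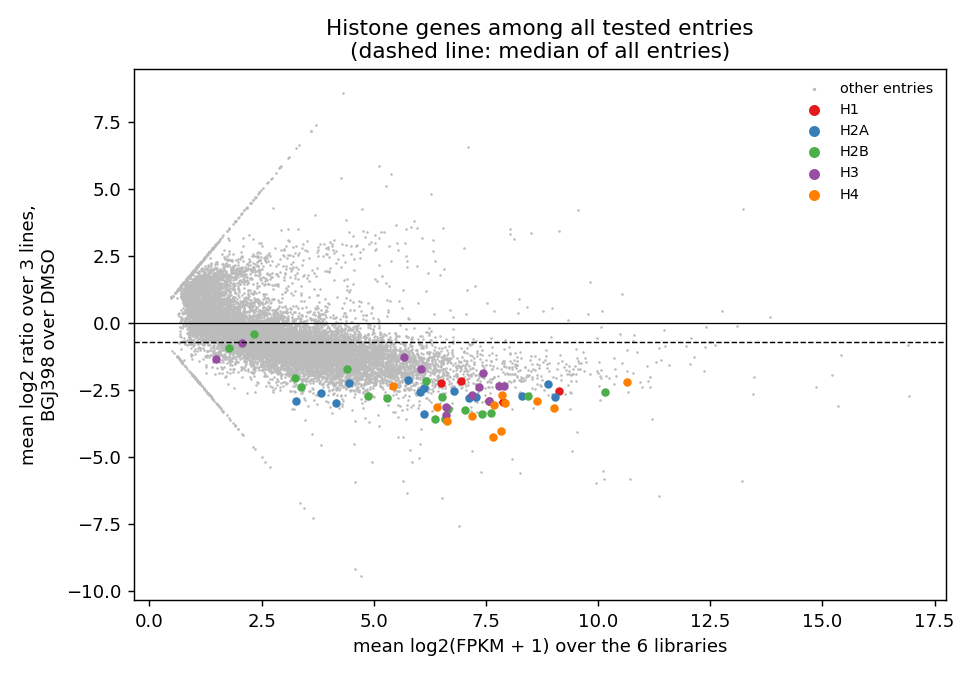
Mean log2 ratio of BGJ398 over DMSO over the 3 lines (vertical axis) against the mean log2(FPKM + 1) over the 6 libraries (horizontal axis) for the 14232 entries, with histone genes coloured by type. The dashed line is the median of all entries at -0.69, and all histone genes but Hist2h2be lie below it, with values over the 60 genes between -0.39 for Hist2h2be and -4.24 for Hist1h4j.

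Within the lines, 57 members in BBC, 48 in ZNF and 57 in BCRF8C were at least 2-fold lower with BGJ398, and 0 were 2-fold higher in any line. Among all entries, 46.5%, 14.2% and 42.4% were 2-fold lower in the same lines, and 7.72%, 14.6% and 18.4% were 2-fold higher. Entries at 0 with both agents of a line count as neither in these shares. The members' median log2 ratio was -2.69 in BBC, -1.68 in ZNF and -3.52 in BCRF8C, where all entries had medians of -0.91, -0.37 and -0.76. The ratios were thus smallest in ZNF and largest in BCRF8C, for the histone genes as a group, in 1 library per line and agent and with no test. On the scale with the trend removed the medians were -1.01, -0.89 and -1.82. Across the 60 genes, the ratios of 2 lines correlated only moderately (Pearson r of 0.42 for BBC with ZNF, 0.41 for BBC with BCRF8C and 0.40 for ZNF with BCRF8C), where genes are not independent and share their libraries.

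**Figure D3:**
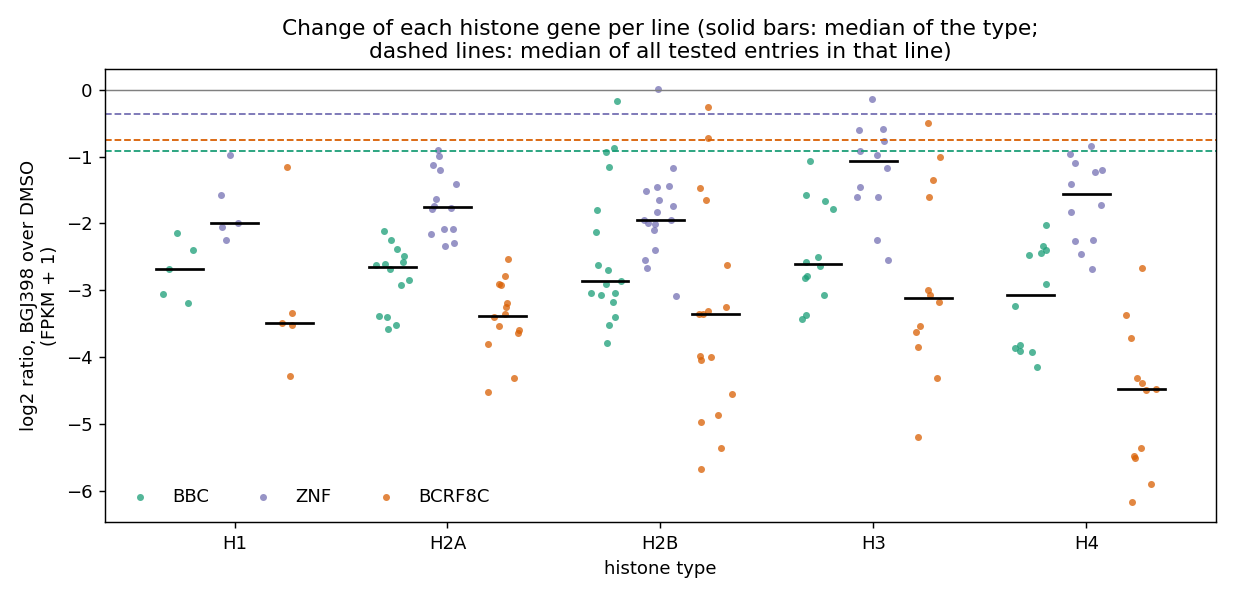
Log2 ratio of BGJ398 over DMSO (FPKM + 1) of each histone gene in BBC (green), ZNF (purple) and BCRF8C (orange), by type. Solid bars are the medians of the type and dashed lines the medians of all entries in the line (-0.91, -0.37 and -0.76). The H4 genes in BCRF8C reach the lowest ratios, at a median of -4.48, and the H3 genes in ZNF have the median nearest to 0, at -1.07.

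Sums over a type depend less on which of several near-identical copies a read was given to. The 60 members together had 4459, 10588 and 2709.6 FPKM in the BGJ398 libraries of BBC, ZNF and BCRF8C, against 30997, 33551 and 31237 FPKM in the DMSO libraries. The DMSO sums were thus nearly alike, while the BGJ398 sums were spread widely and did not overlap with them. With BGJ398 the sum was 14.4%, 31.6% and 8.67% of that with DMSO, which is -2.66 ± 0.94 as the mean log2 ratio (SD, n = 3 lines; sums were compared without a pseudocount and with no test). After quantile normalization that mean was -1.26 and with the trend removed -1.03.

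H1 genes summed to 606, 1288 and 229 FPKM with BGJ398 in BBC, ZNF and BCRF8C, against 4128, 4936 and 2593 FPKM with DMSO (log2 ratio -2.74 ± 0.78, mean ± SD over 3 lines, as for the other types). H2A genes summed to 590.2, 1590.1 and 998 FPKM with BGJ398, against 4389, 4999 and 7573 FPKM with DMSO (-2.49 ± 0.73). Both types were lower with BGJ398 in every line. With DMSO, BCRF8C had the lowest H1 sum and the highest H2A sum of the 3 lines. H2B genes summed to 849, 2164 and 587 FPKM with BGJ398, against 7262, 7777 and 6202 FPKM with DMSO (-2.78 ± 0.82). H3 genes summed to 608, 1469 and 316 FPKM with BGJ398, against 4017, 3853 and 3429 FPKM with DMSO (-2.52 ± 1.04). H4 genes, the most abundant type except in BCRF8C with BGJ398, summed to 1806, 4077 and 580.1 FPKM with BGJ398, against 11202, 11986 and 11439 FPKM with DMSO (-2.83 ± 1.38). The type with the lowest log2 ratio was H2B in BBC (-3.10), H1 in ZNF (-1.94) and H4 in BCRF8C (-4.30). The order of the 5 types thus differed between lines, and differences between types were not tested. BGJ398 and DMSO sums did not overlap for any type.

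**Figure D4:**
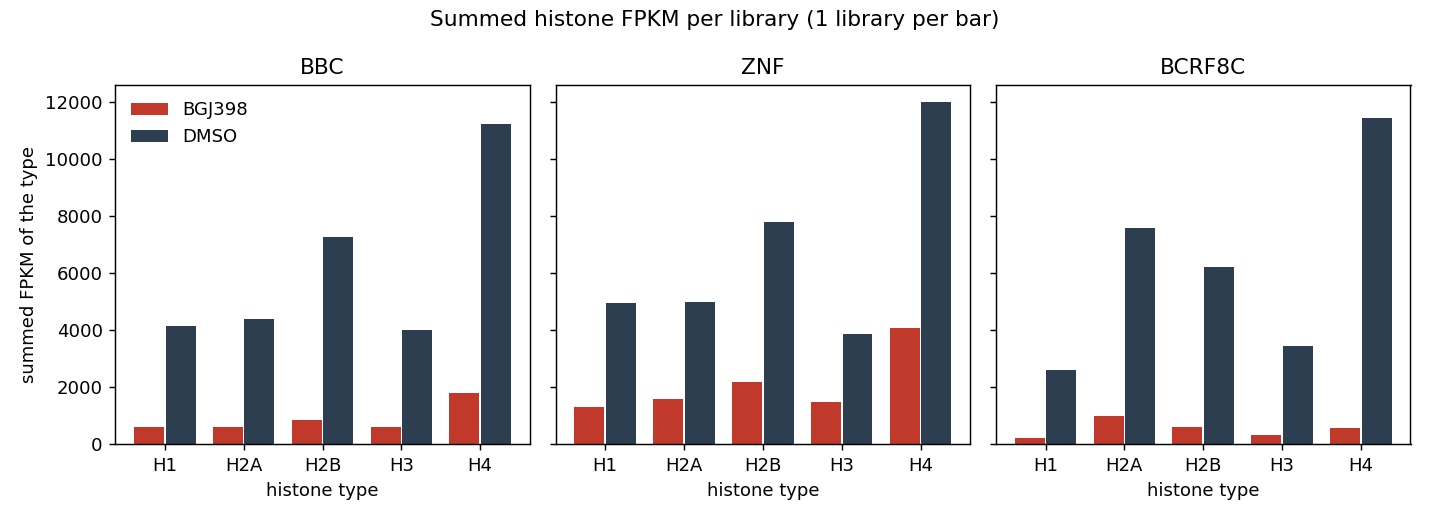
Summed FPKM of the members of each histone type in each of the 6 libraries, with BGJ398 (red) left of DMSO (dark blue). Each bar is 1 library. H4 is the tallest DMSO bar in each line, and in BCRF8C its BGJ398 bar is at 5.07% of its DMSO bar.

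The balance between the dimer histones and the tetramer histones was lower with BGJ398 in BBC and ZNF and higher in BCRF8C. H2A and H2B together amounted to 0.596, 0.677 and 1.77 times the sum of H3 and H4 in the BGJ398 libraries of BBC, ZNF and BCRF8C, against 0.766, 0.807 and 0.927 times in the DMSO libraries. In BCRF8C, H2A made up 36.8% of all histone FPKM with BGJ398, against 24.2% with DMSO, and H4 made up 21.4% with BGJ398, against 36.6% with DMSO. A single entry, Hist1h2al, a processed pseudogene in GENCODE vM21, held 58.9% of the H2A sum in BCRF8C with BGJ398, against 44.9% with DMSO. Hist2h2bb, whose identifier is a long noncoding RNA gene there, held 57.3% of the H2B sum in BCRF8C with BGJ398, against 33.5% with DMSO. The ratio of 1.77 thus depends on these entries, and the ratio without them is not given here. The linker histones summed to 15.7%, 13.8% and 9.24% of the core histones with BGJ398, against 15.4%, 17.3% and 9.05% with DMSO, so that their share was nearly the same with and without BGJ398 in BBC and BCRF8C and lower with BGJ398 in ZNF. With 1 library each, none of these shifts has a test.

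H1 seals the nucleosome where DNA enters and leaves it. The H1 genes lie on chromosome 13 in NCBIM37, the build of the deposited coordinates. All 5 fell (limma adjusted p of 0.0348 to 0.0364). Hist1h1e (ENSMUSG00000051627, chromosome 13, 23713624 to 23714371), the most abundant of them, had 213, 365 and 157 FPKM with BGJ398 in BBC, ZNF and BCRF8C, against 1372, 1088 and 1601 FPKM with DMSO (-2.53 ± 0.89 as mean log2 ratio ± SD over the 3 lines, as for each gene below, limma adjusted p = 0.0364). Its groups did not overlap. Hist1h1b had 67.04, 224 and 40.2 FPKM with BGJ398, against 621, 934 and 464 FPKM with DMSO, and the largest change among H1 genes at -2.91 ± 0.76 (limma adjusted p = 0.0348). Hist1h1d, the least abundant in BBC and ZNF, had 57.3, 112 and 10.2 FPKM with BGJ398, against 257, 222 and 127 FPKM with DMSO (-2.21 ± 1.27, limma adjusted p = 0.0364). In both genes every BGJ398 library lay below every DMSO library, and the ratio was nearest to 0 in ZNF.

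Hist1h1a (ENSMUSG00000049539, chromosome 13, 23855537 to 23856283) was line-dependent. It had 148, 452 and 1.91 FPKM with BGJ398 in BBC, ZNF and BCRF8C, against 1236, 2157 and 5.46 FPKM with DMSO. BCRF8C thus held almost no Hist1h1a RNA with either agent, and the DMSO library of BCRF8C lay below the BGJ398 libraries of the other lines, so that the groups overlapped. The log2 ratios were -3.05, -2.25 and -1.15, and the mean was -2.15 ± 0.96 (limma adjusted p = 0.0350). Hist1h1c, an H1 gene known to make polyadenylated mRNA as well, had 121, 134 and 19.4 FPKM with BGJ398, against 640.3, 535 and 395 FPKM with DMSO, with no overlap (-2.89 ± 1.22, limma adjusted p = 0.0348).

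**Figure D5:**
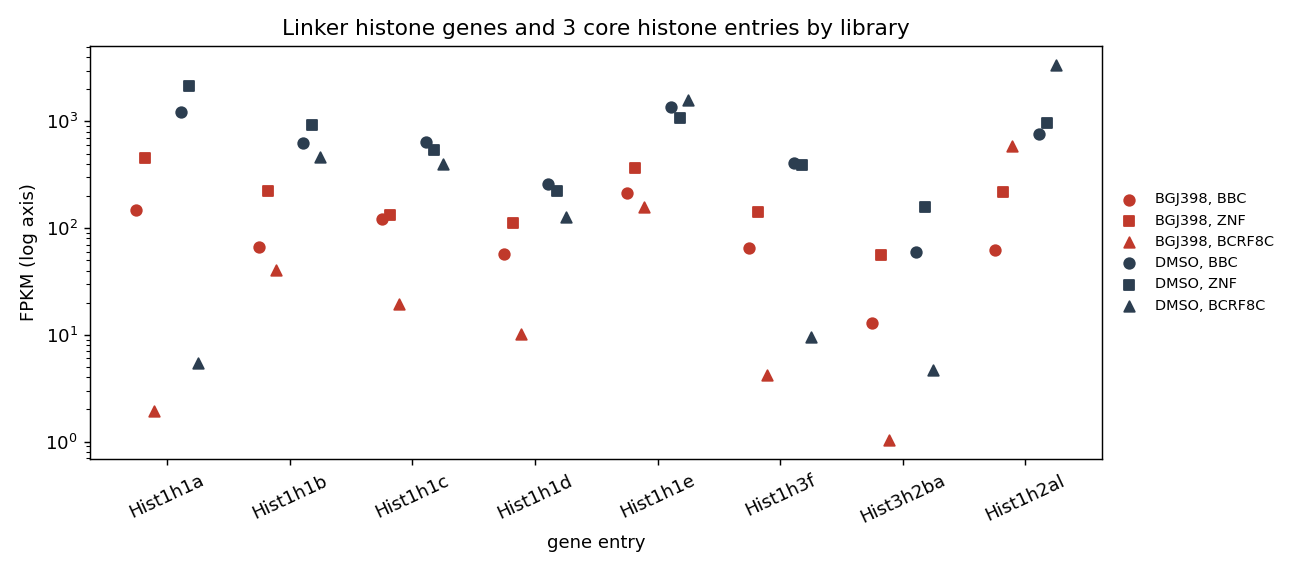
FPKM on a log axis for the 5 H1 genes and for Hist1h3f, Hist3h2ba and Hist1h2al in each library. BGJ398 points are red and left of the dark blue DMSO points, circles stand for BBC, squares for ZNF and triangles for BCRF8C. Hist1h1a is at 1.91 FPKM with BGJ398 and 5.46 FPKM with DMSO in BCRF8C and above 100 FPKM in the other 4 libraries.

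H2A and H2B pair into the dimers on the outside of the nucleosome. All 14 H2A genes fell. Hist1h2ak had 156, 259 and 239 FPKM with BGJ398 in BBC, ZNF and BCRF8C, against 678, 868 and 1827 FPKM with DMSO (-2.26 ± 0.61, limma adjusted p = 0.0372). Hist1h2al (ENSMUSG00000091383, chromosome 13, 51298057 to 51298434) had 62.9, 217 and 588 FPKM with BGJ398, against 759, 971 and 3400.4 FPKM with DMSO (-2.75 ± 0.73, limma adjusted p = 0.0348). It was the H2A entry with the highest mean and was highest in BCRF8C with both agents. Its identifier is a processed pseudogene in GENCODE vM21, it lies apart from the other Hist1 genes, and reads of near-identical copies cannot be told apart here.

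The H2A gene with the lowest mean ratio was Hist1h2ah, with 14.4, 63.2 and 9.24 FPKM with BGJ398, against 176, 272 and 234 FPKM with DMSO (-3.38 ± 1.22, limma adjusted p = 0.0348). The H2A gene with the ratio nearest to 0 was Hist3h2a, with 19.5, 107 and 6.79 FPKM with BGJ398, against 124, 212 and 52.7 FPKM with DMSO (-2.13 ± 0.99, limma adjusted p = 0.0348). Hist1h2ah did not overlap between the groups, while Hist3h2a did, since BCRF8C had little of it with DMSO. Hist1h2ad, named for its lowest value, was at 2.11, 13.4 and 0.001 FPKM with BGJ398, against 22.6, 69.8 and 9.62 FPKM with DMSO. The value of 0.001 is a floor in the table that 147 entries share in that library.

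Among H2B genes, 14 of 17 fell. Hist2h2bb (ENSMUSG00000050936, chromosome 3, 96070998 to 96082924) was the highest H2B entry in all 6 libraries, with 300.5, 1000.3 and 337 FPKM with BGJ398 in BBC, ZNF and BCRF8C, against 3454, 2863 and 2079.6 FPKM with DMSO (-2.55 ± 1.003, limma adjusted p = 0.0459). It shares its locus in the table with Hist2h3b, and its identifier is a long noncoding RNA gene, Gm42743, in GENCODE vM21. Hist1h2bb had 139, 186 and 94.04 FPKM with BGJ398, against 1049.9, 749 and 901 FPKM with DMSO (-2.72 ± 0.64, limma adjusted p = 0.0348). Hist1h2bm had 42.8, 183 and 27.7 FPKM with BGJ398, against 464, 787 and 668 FPKM with DMSO (-3.35 ± 1.22, limma adjusted p = 0.0348). In all 3 the BGJ398 libraries lay below the DMSO libraries without overlap.

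The H2B gene with the lowest mean ratio was Hist1h2bj, with 27.4, 65.3 and 6.34 FPKM with BGJ398, against 183, 420.5 and 302 FPKM with DMSO (-3.58 ± 1.55, limma adjusted p = 0.0348). At the other end stood Hist2h2be (ENSMUSG00000068854, chromosome 3, 96025044 to 96027661), known in mouse as an H2B variant of olfactory neurons, with 3.70, 3.43 and 3.01 FPKM with BGJ398, against 7.95, 3.40 and 3.79 FPKM with DMSO. Hist1h2bj was separated by agent in every line, while Hist2h2be was lower in BBC and BCRF8C and level in ZNF. The mean log2 ratio of Hist2h2be was -0.39 ± 0.48 (limma adjusted p = 0.330), and it was 0.11 with the expression trend removed. The testis-expressed Hist1h2ba was low throughout, at 1.25, 3.37 and 0.528 FPKM with BGJ398, against 3.14, 8.87 and 1.52 FPKM with DMSO, and did not pass the test (limma adjusted p = 0.0602).

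H3 and H4 form the tetramer at the core of the nucleosome. Of the H3 genes, 9 of 12 fell. Hist2h3b had 117, 199.97 and 49.8 FPKM with BGJ398 in BBC, ZNF and BCRF8C, against 835, 449.8 and 424 FPKM with DMSO (-2.35 ± 1.03, limma adjusted p = 0.0353). Hist1h3b had 91.6, 219 and 46.7 FPKM with BGJ398, against 522, 431 and 552 FPKM with DMSO (-2.34 ± 1.29, limma adjusted p = 0.0382). In both, ZNF showed the ratio nearest to 0. Hist1h3i had 56.7, 122 and 46.4 FPKM with BGJ398, against 397, 582 and 586 FPKM with DMSO (-2.89 ± 0.70, limma adjusted p = 0.0348). Hist1h3h, the H3 gene with the lowest mean ratio, had 20.8, 94.3 and 11.9 FPKM with BGJ398, against 235, 554 and 257 FPKM with DMSO (-3.43 ± 0.89, limma adjusted p = 0.0348). Neither overlapped between the groups.

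The H3 genes without a call were Hist1h3d, Hist1h3e and Hist2h3c1.1, the first 2 named after their values were seen. Hist1h3d had 17.5, 50.3 and 37.6 FPKM with BGJ398, against 62.4, 76.8 and 97.4 FPKM with DMSO (log2 ratios -1.78, -0.60 and -1.35, limma adjusted p = 0.0520). On the other scales its mean ratio was -0.51 when scaled by the median of ratios, 0.06 when quantile normalized and 0.18 with the trend removed. Hist1h3e had 72.5, 183 and 54.6 FPKM with BGJ398, against 217, 201 and 799.5 FPKM with DMSO, log2 ratios of -1.57, -0.14 and -3.85 (limma adjusted p = 0.0889). Its BCRF8C libraries differed by far more than its ZNF libraries. Hist2h3c1.1 had 2.18, 4.44 and 0.987 FPKM with BGJ398, against 5.65, 7.16 and 1.79 FPKM with DMSO (-0.71 ± 0.31, limma adjusted p = 0.0981).

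Of the H4 genes, 11 of 12 fell. Hist1h4d (ENSMUSG00000061482, chromosome 13, 23673467 to 23673859), the highest histone entry by mean FPKM, had 719, 1532 and 379 FPKM with BGJ398 in BBC, ZNF and BCRF8C, against 2928, 2754 and 4994 FPKM with DMSO. Every BGJ398 library lay below every DMSO library, yet the gene did not pass the test (-2.19 ± 1.44, limma adjusted p = 0.0894), its log2 ratios being -2.02, -0.85 and -3.71. It made up 39.8%, 37.6% and 65.4% of the H4 sum with BGJ398, against 26.1%, 23.0% and 43.7% with DMSO. Hist1h4c had 278, 433 and 41.9 FPKM with BGJ398, against 1511, 1429 and 1756 FPKM with DMSO (-3.17 ± 1.93, limma adjusted p = 0.0377). Hist1h4h had 231, 346 and 38.1 FPKM with BGJ398, against 1289, 1236 and 816 FPKM with DMSO (-2.90 ± 1.33, limma adjusted p = 0.0350). Both were without overlap and lowest in BCRF8C with BGJ398.

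Hist1h4j (ENSMUSG00000067455, chromosome 13, 21826903 to 21827329) had the lowest mean ratio of all members. Its levels were 51.1, 183 and 9.54 FPKM with BGJ398 in BBC, ZNF and BCRF8C, against 757, 1179 and 754 FPKM with DMSO, log2 ratios of -3.86, -2.68 and -6.16 with -4.24 ± 1.77 as their mean and SD (limma adjusted p = 0.0348). The DMSO libraries lay between 754 and 1179 FPKM, and the BGJ398 libraries far below them. The mean was -3.01 after quantile normalization and -2.70 with the trend removed.

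Some members differed between lines with DMSO already, and these were picked after their values were seen. Hist1h3f had 64.5, 142 and 4.24 FPKM with BGJ398 in BBC, ZNF and BCRF8C, against 408, 391 and 9.54 FPKM with DMSO. Hist1h4f had 175, 407 and 4.08 FPKM with BGJ398, against 930.4, 936 and 230.1 FPKM with DMSO. Like Hist1h1a, both were lowest in BCRF8C with either agent, so that the BGJ398 and DMSO groups overlapped. Hist1h2bp was instead highest in BCRF8C with DMSO, at 4.94, 3.55 and 2.82 FPKM with BGJ398, against 5.65, 16.6 and 60.1 FPKM with DMSO, with log2 ratios of -0.16, -1.95 and -3.999 and no call (limma adjusted p = 0.0569). The DMSO levels of the 60 genes correlated at r = 0.96 between BBC and ZNF, 0.78 between BBC and BCRF8C and 0.75 between ZNF and BCRF8C, as a description over genes.

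By position, the change was seen in each of the 4 clusters. In Hist1, 43 of 48 members fell, in Hist2 6 of 8, in Hist3 3 of 3 and in Hist4 its only member. Summed FPKM of Hist1 was 3751, 8434 and 2237 with BGJ398 in BBC, ZNF and BCRF8C, against 24048, 27327 and 27787 with DMSO (-2.67 ± 0.97 on the log2 scale, mean ± SD over the lines). Hist2 summed to 586, 1637 and 440.1 FPKM with BGJ398, against 5894, 4167 and 3157 FPKM with DMSO (-2.51 ± 1.03). Hist3 summed to 33.4, 171 and 11.6 FPKM with BGJ398, against 211, 398 and 71.3 FPKM with DMSO (-2.16 ± 0.82). The groups did not overlap for Hist1 and Hist2, while for Hist3 the BGJ398 library of ZNF was above the DMSO library of BCRF8C. By line, the lowest of the 3 log2 ratios was that of Hist2 in BBC (-3.33) and of Hist1 in ZNF (-1.70) and BCRF8C (-3.63). Hist3 was nearest to 0 in each line (-2.66, -1.21 and -2.62), and these differences were not tested.

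Within Hist1, the 48 members were split wherever neighbours were more than 100 kb apart. The largest group, 28 members between 23622919 and 23856283 on chromosome 13, summed to 2942, 6189.7 and 1100.2 FPKM with BGJ398, against 16772, 17908 and 15863 FPKM with DMSO (-2.63 ± 1.16). The 13 members between 21807632 and 21924065 summed to 628, 1699.7 and 492 FPKM with BGJ398, against 5356, 7063 and 7170.4 FPKM with DMSO (-3.01 ± 0.91). The 5 members between 22126982 and 22135545, Hist1h2ag, Hist1h2ah, Hist1h2bj, Hist1h2bk and Hist1h4i, summed to 117, 325 and 57.03 FPKM with BGJ398, against 1158, 1376 and 1352 FPKM with DMSO (-3.32 ± 1.24). All 5 of this last group fell. These 3 groups hold 46 of the 48 members. By line, in BBC, ZNF and BCRF8C, the group of 28 was at -2.51, -1.53 and -3.85. The group of 13 was at -3.09, -2.06 and -3.87, and the group of 5 at -3.31, -2.08 and -4.57. The order of the groups was thus the same in every line, and their differences were not tested. The other two members stand alone. Hist1h2ba, at a low level, was at -1.41 ± 0.10 and Hist1h2al at -2.76 ± 0.74 by the same measure. In every line Hist1h2ba was nearer to 0 than each of the 3 groups (-1.32, -1.40 and -1.52), with no test made.

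Members outside Hist1 are named in full. Hist4h4 (ENSMUSG00000068851, chromosome 6, 136752589 to 136752900), an H4 gene known to make polyadenylated mRNA, had 88.4, 345 and 20.5 FPKM with BGJ398 in BBC, ZNF and BCRF8C, against 845, 1659 and 221 FPKM with DMSO (-2.96 ± 0.60, limma adjusted p = 0.0348). Hist2h2ac had 130.2, 363 and 39.4 FPKM with BGJ398, against 1367, 677 and 563 FPKM with DMSO (-2.69 ± 1.57, limma adjusted p = 0.0377). Hist2h2ab had 11.3, 25.99 and 2.18 FPKM with BGJ398, against 57.3, 57.99 and 29.2 FPKM with DMSO (-2.21 ± 1.06, limma adjusted p = 0.0348). Both H2A genes were separated by agent, while Hist4h4 overlapped, its DMSO level in BCRF8C lying below its BGJ398 level in ZNF. Hist2h4 had 20.98, 39.7 and 7.03 FPKM with BGJ398, against 164, 107 and 50.1 FPKM with DMSO (-2.33 ± 0.80, limma adjusted p = 0.0348). Hist2h3c2, near the threshold, had 0.350, 0.894 and 1.15 FPKM with BGJ398, against 3.28, 2.21 and 5.52 FPKM with DMSO (-1.34 ± 0.50, limma adjusted p = 0.0403). Hist2h4 and Hist2h3c2 did not overlap between the groups. In the Hist3 cluster, Hist3h2ba had 12.8, 56.3 and 1.03 FPKM with BGJ398, against 59.1, 157 and 4.64 FPKM with DMSO (-1.69 ± 0.38, limma adjusted p = 0.0348), and the processed pseudogene Hist3h2bb-ps had 1.10, 8.47 and 3.79 FPKM with BGJ398, against 27.99, 28.6 and 14.03 FPKM with DMSO (-2.36 ± 1.24, limma adjusted p = 0.0348).

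Promoters of the members were read from RefSeq (GRCm38.p6), where 52 of the 60 matched by symbol or synonym, as windows of 250 bases before to 50 after the start. The 150 bases upstream of 5 abundant members, 1 of each type, are shown as examples of genes that were lower in every line. They are Hist1h1e (chr13:23622559-23622708, minus strand), Hist1h2ak (chr13:21753913-21754062, minus strand), Hist1h2bb (chr13:23746584-23746733, plus strand), Hist2h3b (chr3:96268504-96268653, plus strand) and Hist1h4d (chr13:23581418-23581567, plus strand), each written 5′ to 3′ on the gene's strand. Capitals mark matches on either strand to CCAAT, the letters bound by NF-Y, TATAAA, a core promoter box, and ATTTGCAT, the octamer bound by Pou2f1.
Hist1h1e: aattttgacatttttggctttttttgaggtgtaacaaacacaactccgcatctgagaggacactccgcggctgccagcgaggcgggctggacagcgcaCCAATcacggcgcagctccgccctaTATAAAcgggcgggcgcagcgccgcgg
Hist1h2ak: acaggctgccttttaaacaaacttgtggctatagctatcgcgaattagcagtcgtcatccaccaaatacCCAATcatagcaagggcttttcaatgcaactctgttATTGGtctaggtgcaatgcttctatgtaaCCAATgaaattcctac
Hist1h2bb: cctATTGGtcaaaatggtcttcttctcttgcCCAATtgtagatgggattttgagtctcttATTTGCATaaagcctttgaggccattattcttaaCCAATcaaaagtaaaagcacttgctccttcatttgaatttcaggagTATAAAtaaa
Hist2h3b: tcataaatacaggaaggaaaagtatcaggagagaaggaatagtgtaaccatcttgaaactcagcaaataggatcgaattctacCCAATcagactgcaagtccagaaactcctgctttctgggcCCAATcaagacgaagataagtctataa
Hist1h4d: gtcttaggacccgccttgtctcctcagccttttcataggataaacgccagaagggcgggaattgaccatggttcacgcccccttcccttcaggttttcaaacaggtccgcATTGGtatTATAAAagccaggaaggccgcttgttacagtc

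Over the whole windows, CCAAT was found in 44 of 52 members (84.6%), against 37.4% of all 32851 promoters. It was in all matched H1, H2A, H2B and H3 promoters and in 3 of 11 H4 promoters. TATAAA was found in 32 of 52 members (61.5%), against 13.6% of all promoters, and in each type. ATTTGCAT was in 13 of 52 members (25%), against 1.74% of all promoters, in 6 of 13 H2A and 7 of 14 H2B promoters and in none of H1, H3 or H4. Some H2A and H2B genes lie side by side and are read in opposite directions, so that their windows share bases. The windows of Hist1h2ae and Hist1h2bg hold the same ATTTGCAT site, and so do those of Hist1h2ah and Hist1h2bk. Each such site was counted for both genes of its pair. None of the 3 motifs contains another, though matches may share bases at their ends. Such matches are descriptions of the sequence, and no binding was measured.

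With the stem-loop, members whose transcript ended within 100 bases of it had a median log2 ratio of -2.80 (14 of 15 fell), those with a longer annotated end -2.43 (13 of 16), and those without a match -2.55 (17 of 19). The ranges were -3.58 to -2.04, -3.39 to -0.71 and -4.24 to -0.39, and overlapped. Hist1h4j, with the lowest ratio, and Hist2h2be, with the ratio nearest to 0, both had no match in their annotated transcript. Of 4 members known to make polyadenylated mRNA, Hist1h1c, Hist1h2bc and Hist4h4 fell and Hist2h2be did not pass. Hist1h2bc had 28.1, 100.4 and 11.6 FPKM with BGJ398, against 211, 359 and 366 FPKM with DMSO (-3.19 ± 1.54, limma adjusted p = 0.0348). Whether the libraries were selected for poly(A) is not given in the sources used here, so the share of tailless histone mRNA in these values is unknown.

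Genes that make and end histone mRNA had a median ratio nearer to 0, a difference that was not tested. Of 19 genes for histone transcription and 3′ end formation, 11 fell and 0 rose, with a median log2 ratio of -1.30. Of all entries, 30.2% were called lower and 6.61% higher, with a median of -0.69. Slbp, which binds the stem-loop, had 40.5, 57.6 and 124 FPKM with BGJ398 in BBC, ZNF and BCRF8C, against 169.9, 122 and 215 FPKM with DMSO (-1.30 ± 0.66, limma adjusted p = 0.0629). Npat had 6.90, 11.4 and 12.3 FPKM with BGJ398, against 21.5, 18.3 and 19.6 FPKM with DMSO (-0.93 ± 0.51, limma adjusted p = 0.0653). Neither passed the test. On the other scales the mean ratio of Slbp was -0.56 when scaled by the median of ratios, 0.19 when quantile normalized and 0.31 with the trend removed, and that of Npat was -0.23, 0.07 and 0.18. Those that fell most were Srrt, part of the cap-binding machinery (-1.9998 ± 0.68, limma adjusted p = 0.0348), the S phase kinase gene Cdk2 (-1.74 ± 0.60, limma adjusted p = 0.0348), Ncbp2, a cap-binding subunit (-1.70 ± 0.71, limma adjusted p = 0.0348), and Cpsf3, the endonuclease (-1.66 ± 0.68, limma adjusted p = 0.0348).

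Of 10 tested genes for histone mRNA decay, 7 fell and 0 rose, with a median of -1.26, where 30.2% of all entries were called lower. Those that fell include Eri1, the exonuclease that trims the stem-loop (-1.51 ± 0.55, limma adjusted p = 0.0350), the helicase gene Upf1 (-1.65 ± 0.88, limma adjusted p = 0.0350), Exosc10 of the exosome (-1.71 ± 0.77, limma adjusted p = 0.0348) and Lsm4 of the decapping ring (-1.93 ± 1.45, limma adjusted p = 0.0466). Of the uridylyltransferases, Zcchc11 had 10.4, 12.7 and 22.9 FPKM with BGJ398, against 10.3, 9.52 and 13.96 FPKM with DMSO, and did not pass (limma adjusted p = 0.352). It was named after its values were seen, as the gene of this list with the highest ratio.

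Histone chaperones and assembly factors fell in 14 of 17 cases, with a median of -1.70. Of all entries, 30.2% were called lower, with a median of -0.69. Asf1b, a chaperone of new H3 and H4, had 12.8, 17.1 and 11.97 FPKM with BGJ398, against 89.4, 50.3 and 71.4 FPKM with DMSO (-2.23 ± 0.64, limma adjusted p = 0.0348). Rbbp7 (-2.10 ± 0.89), the importin gene Ipo4 (-2.06 ± 1.07) and Chaf1a of the assembly factor CAF-1 (-2.02 ± 0.47) fell as well. All 22 genes of DNA replication fell, with a median of -1.84, led by Mcm2, a subunit of the replicative helicase, with 6.22, 44.6 and 10.7 FPKM with BGJ398, against 57.1, 103 and 79.5 FPKM with DMSO (-2.33 ± 0.99, limma adjusted p = 0.0348). After it came Mcm5 (-2.17 ± 0.57) and Mcm3 (-2.15 ± 0.56) of the same helicase and Rfc2 of the clamp loader (-2.06 ± 0.78). The medians of these 4 lists were -0.36, -0.38, -0.46 and -0.65 after quantile normalization, where the histone genes stood at -1.54. All entries had a median of -0.11 on that scale. Of the 54 calls in these lists, 0 were left on that scale (limma), with the median-of-ratios scaling, with the trend removed, without the block and without BBC, and 7 calls were made without BCRF8C. At an unadjusted p under 0.05 (limma) after quantile normalization were 6 of 19, 1 of 10, 5 of 17 and 12 of 22 genes. These counts were 11, 6, 15 and 21 with median-of-ratios scaling, and 2, 1, 5 and 10 with the trend removed. Of all 14232 entries, 3283, 5756 and 3084 did so in these 3 settings.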

How the data were processed

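The authors deposited 1 table of FPKM values for 17169 gene entries in 6 libraries. The tools named are bcl2fastq and TopHat2 (2.0.12), and the build is NCBIM37, per the submitters' processing notes. Not given in the sources used here are the program that gave FPKM, its annotation and its handling of reads shared by near-identical genes, so values of single copies are uncertain, and 7 members overlap another entry. Read steps could not be recovered from the values, so counting error has no interval here. Zeros and values of 0.001 FPKM may be failed estimates. No member was at 0.

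The 14232 entries that reached 1 FPKM on average were analysed as log2(FPKM + 1), which understates the change of low genes, with limma 3.58.1 in R 4.3.3 (lmFit, eBayes with an intensity trend, 2 residual degrees of freedom), BGJ398 minus DMSO. The two-sided p-values were adjusted with the Benjamini-Hochberg method over these entries, with calls under 0.05. The script was checked on simulated data. The line was the block, as the 2 libraries of a pair are of the same line; deviations from the group means correlated at 0.454, 0.541 and 0.549 within BBC, ZNF and BCRF8C. Within a line, entries at least 2-fold apart were counted without a test. Sums of FPKM and motif counts were computed with Python 3.11.15. Deposited starts were raised by 1. GENCODE vM21 and RefSeq are of another build and gave transcripts, promoters and biotypes only.

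Alternatives were another scaling (median-of-ratios, quantile, loess trend removed with a span of 0.3), a pseudocount of 0.1, other filters on low values, no block, eBayes without a trend, each line left out, and sums without the highest member. Named were the 3 members per type with the highest mean FPKM, those with the lowest and highest mean ratio, all H1 members, all members outside Hist1, and of each list the 4 called genes with the largest ratio, with Slbp and Npat. Members and lists were chosen with earlier results of these data known. A marker gene is not reported here.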

Additional observations from a re-analysis of the deposited data

Results flagged for a closer look

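Hist2h2be differed from the other members in direction between lines. Its log2 ratio of BGJ398 over DMSO was -0.93 in BBC, 0.00785 in ZNF and -0.26 in BCRF8C, from 1 library per line and agent. It was the only one of the 60 members with a ratio above 0 in any line as deposited. The difference between the lines was not tested, and the ratio in ZNF is close to 0.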

How the results depend on the processing

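Members called lower numbered 53 as deposited and 0 with median-of-ratios scaling, with quantile normalization, with the trend on expression removed and without the replicate block (limma; 53, 49, 39 and 52 at an unadjusted p under 0.05), and 0 to 50 when 1 line was left out. Of all 14232 entries, 5756, 3283, 3084 and 5679 were at an unadjusted p under 0.05 in the same 4 settings (limma). The cause of the changes in calls was not tested, except that leaving out a line leaves 1 residual degree of freedom. Over all entries, 4295 were lower as deposited, then 1, 1, 0 and 1 under those 4 settings and 0 to 4795 with 1 line left out. Those higher numbered 941, then 3, 2, 0 and 6, then 0 to 796 with 1 line left out, 315 with a mean of at least 5 FPKM and 1620 among entries above 0 in all 6 libraries. The pathway lists had 54 calls, then 0 under the same 4 settings and 0 to 54 with 1 line left out. Members 2-fold lower numbered 30 in BBC with the trend removed, and 29 in ZNF after quantile normalization and 24 with the trend removed. Mean log2 ratios of the sums were, after quantile normalization, -1.26 for all types, -1.36 for H1, -1.05 for H2A, -1.35 for H2B, -1.20 for H3 and -1.44 for H4, and with the trend removed, an alternative added after seeing the data, -1.03, -1.11, -0.81, -1.18, -0.93 and -1.20. For H2A the mean was -1.74 after median-of-ratios scaling. Without Hist1h2al, Hist3h2bb-ps and Hist2h2bb, also added after seeing the data, 50 of 57 members were called and the sum of all types was at -2.74. Of 49 named genes, 43 lost their call under each of those 4 settings and without BBC, 32 without BCRF8C and 2 without ZNF. Of the calls across lines, those of the 53 members kept their sign under each setting, and of the 54 in the pathway lists 1, Cstf2, changed it (0.05 with the trend removed). Of members 2-fold lower in a line, Hist1h2bn in BBC and Hist1h3d in BCRF8C changed sign after quantile normalization, and 3 in BBC and 2 in BCRF8C with the trend removed. Depth is unknown and limits low members most.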

Other observations

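Histone variant genes outside the clusters, which are known to be expressed throughout the cell cycle in most cases, were set beside the clustered genes in a list chosen after values could be seen. Of 9 tested, 4 fell, 0 rose and 5 did not pass, with a median log2 ratio of -1.63, where 30.2% of all entries were called lower. With the median of ratios, quantile normalization, the trend removed, no block and BBC left out, 0 of the 9 were called lower (limma). At an unadjusted p under 0.05 were 4, 2, 2, 7 and 4 of them, against 5756, 3283, 3084, 5679 and 2991 of all 14232 entries. Without BCRF8C 1 was called lower and without ZNF 7. All these settings were added for this list after seeing the data. H2afx, a variant that marks DNA breaks and whose mRNA is known to occur also in a stem-loop form, had 53.8, 175 and 9.39 FPKM with BGJ398 in BBC, ZNF and BCRF8C, against 595, 653 and 223 FPKM with DMSO (-3.26 ± 1.28 on the log2 scale, SD, n = 3 lines, limma adjusted p = 0.0348). H2afz, which encodes a variant found at promoters, had 127, 196 and 42.4 FPKM with BGJ398, against 784, 572 and 349.6 FPKM with DMSO (-2.39 ± 0.76, limma adjusted p = 0.0348). In both genes every BGJ398 library lay below every DMSO library. H3f3a, a gene for the replacement H3, had 174, 218 and 67.3 FPKM with BGJ398, against 467, 488 and 318 FPKM with DMSO, and did not pass (limma adjusted p = 0.0514). H3f3b, the other gene for that protein, had 131, 265 and 101 FPKM with BGJ398, against 346, 515 and 589.7 FPKM with DMSO (limma adjusted p = 0.0597). The means were -2.52 for H2afx, -1.65 for H2afz, -0.85 for H3f3a and -0.88 for H3f3b when scaled by the median of ratios. After quantile normalization they were -2.03 for H2afx, -1.08 for H2afz, -0.23 for H3f3a and -0.25 for H3f3b.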
